A study of Mus musculus with 9 samples.

Results

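Expression of 10 genes of the Id family and of bone morphogenetic protein (BMP) signalling was followed in 3T3-L1 cells, mouse adipocyte precursors in culture, early in adipogenic differentiation. They were taken by symbol, with no threshold on a measured value but with earlier results of these data known. The members were Id1, Id2, Id3, Id4, Bmp4, Bmpr1a, Bmpr2, Smad1, Smad6 and Grem1. All 10 were among the 28965 gene symbols of the deposited table. The study profiled poly(A) RNA in 9 libraries, in 3 groups of 3. Cells of the OA_T0 group received 100 µM oleic acid bound to albumin together with 5 µM T0901317, which activates the liver X receptors (LXR). The OA group received the same oleic acid alone, and the MDI group received the albumin vehicle. All cells were wild type, had been grown to confluence, and were then kept for 24 h in dexamethasone (0.1 µg/mL), insulin (0.1 µg/mL) and isobutylmethylxanthine (30 µg/mL), so the 3 groups share the cocktail. There was no library with T0901317 alone and none from before the cocktail. The line is a single established line, and no label says whether a group's replicates came from different cultures, and p-values may measure technical spread only.

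BMP ligands bind a pair of receptor types at the cell surface, and the activated type I receptor phosphorylates SMAD1 and its close relatives, which enter the nucleus and switch on target genes. The Id genes are among the best known of these targets. Id proteins carry a helix-loop-helix domain without a DNA-binding region, so they pair with E proteins and related factors and keep them off DNA. In mesenchymal precursors BMP4 is known for promoting commitment to the adipocyte lineage, and secreted antagonists such as gremlin 1 hold BMP ligands away from their receptors.

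Id4 and Grem1 stood out among the members. Id4 was 2.58-fold lower in OA than in MDI libraries and 2.68-fold higher in OA_T0 than in OA libraries. Grem1 was 1.69-fold lower in OA_T0 than in OA libraries and 1.66-fold lower than in MDI libraries. Id1, Id3 and Smad1 were each about 1.2-fold higher in OA_T0 than in OA libraries. These smaller calls failed without some single libraries, though the fold changes kept their direction. Fold changes here are on the scale of log2(deposited value + 1), and the test was limma with Benjamini-Hochberg adjustment over all 15002 genes with a mean of at least 10. A gene passed at an adjusted p below 0.05. Bmp4 lay under that mean and was not tested.

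Of the 9 tested members, 0 rose and 1 fell in OA against MDI, where 3.43% of all tested genes were higher and 3.36% lower. In OA_T0 against OA, 4 were higher and 1 lower, where 8.27% of all tested genes were higher and 6.84% lower. In OA_T0 against MDI, 0 were higher and 1 lower, against a background of 1.25% and 1.36%. The median log2 fold change of the 9 members was 0.21 in OA_T0 against OA, beside -0.0023 for all tested genes. The same medians were -0.04 and 0.01 in OA against MDI, and 0.10 and 0.02 in OA_T0 against MDI. The OA libraries enter 2 of the comparisons with opposite signs, so these are not independent of each other. Because the members were chosen with earlier results of these data known, the counts and medians describe them and do not test them. Library ranges of 5 members lay wholly higher and of 2 wholly lower in OA_T0 than in OA, where 17.1% and 15.0% of all tested genes did so. In OA against MDI, 0 members lay wholly higher and 2 wholly lower, beside 13.4% and 12.6% of all tested genes. In OA_T0 against MDI, 2 lay wholly higher and 2 wholly lower, beside 13.3% and 10.2%.

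**Figure D1:**
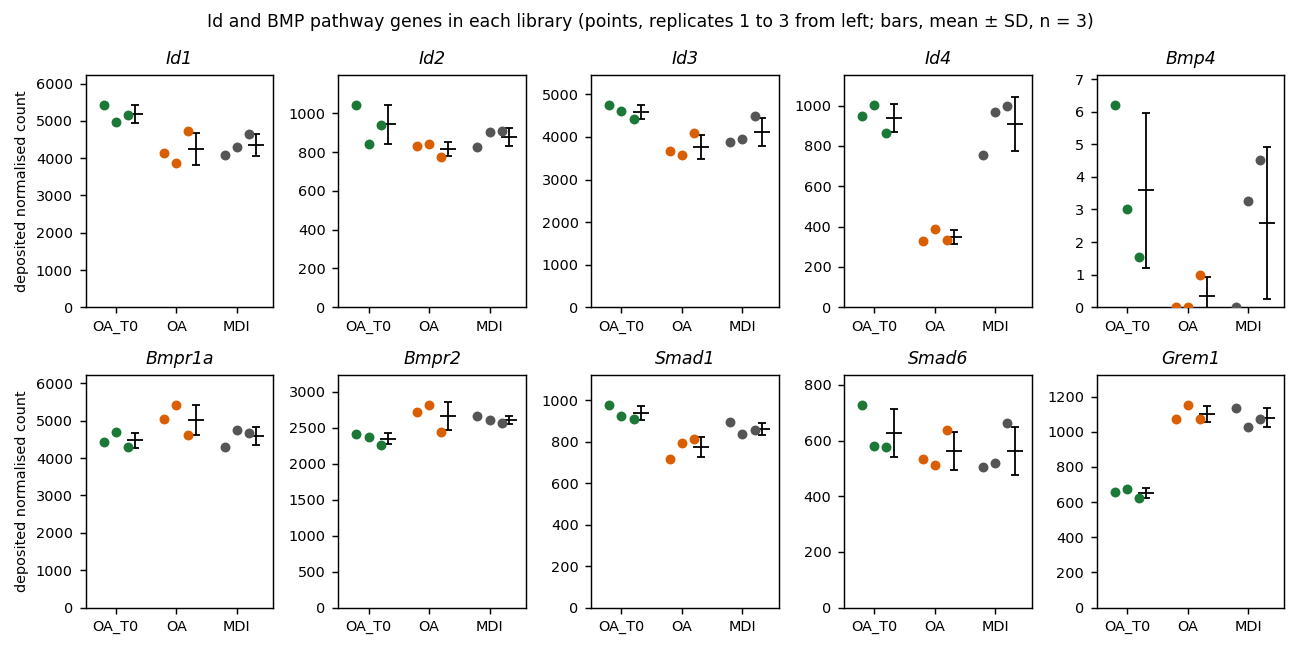
Deposited normalised counts (vertical axes, starting at 0) of the 10 genes in each library of OA_T0, OA and MDI; points are single libraries and bars the mean ± SD (n = 3). Id4 was lowest in the 3 OA libraries, between 328 and 390, and Grem1 in the 3 OA_T0 libraries, between 621 and 677.

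RNA depth was estimated from the step by which low values rise, and ranged from 18.0 to 59.9 M fragments per library, with MDI replicate 1 deepest and OA_T0 replicate 3 shallowest. One ribosomal RNA gene took 0.649% of the deposited values in OA replicate 1 and 3.06% in OA_T0 replicate 3, against 4.40% to 5.96% in the others. All 8 preadipocyte markers had a mean of at least 10. Their summed values were 67704 to 76770 in OA_T0, 69493 to 77836 in OA and 65417 to 73701 in MDI libraries, but single markers moved in different directions. Pdgfra, a receptor of fibroblast-like precursors, averaged 11816 ± 1667 in OA_T0, 18401 ± 437 in OA and 13276 ± 1212 in MDI libraries (SD, n = 3). It fell in OA_T0 against OA (limma adjusted p = 1.53e-04) and rose in OA against MDI (0.00406). Dlk1, a preadipocyte surface protein and the largest term of the sum, averaged 43502 ± 3665 in OA_T0 and 35777 ± 3533 in OA libraries and rose (0.0444), with overlapping ranges. Of 7 adipocyte markers in the table, 4 had such a mean (Fabp4, Cebpa, Pparg and Lpl), while Adipoq and Plin1, which define mature fat cells, did not exceed 6.76 and 6.71 in any library. Summed adipocyte markers were 10577 to 11397 in OA_T0, 12324 to 13306 in OA and 6871 to 7537 in MDI libraries, so the groups did not overlap. Lpl and Fabp4 made up most of that sum. Fabp4 averaged 661 ± 72.9 in OA_T0, 2024 ± 312 in OA and 374 ± 81.4 in MDI libraries, and Lpl 8651 ± 266, 9358 ± 183 and 5424 ± 197. Both rose in OA against MDI (limma adjusted p = 4.57e-08 and 2.78e-07). In OA_T0 against OA Fabp4 fell (2.13e-06) and Lpl did not pass (0.167). Pparg, the master regulator of fat cells, differed from the sum: it averaged 1185 ± 37.7 in OA_T0, 964 ± 44.4 in OA and 945 ± 12.8 in MDI libraries. Pparg rose in OA_T0 against OA (limma adjusted p = 0.00558) and against MDI (0.0127). Macrophage markers summed to 56.9 to 79.8 in OA_T0, 28.9 to 58.9 in OA and 34.6 to 46.2 in MDI libraries, so OA_T0 lay above MDI. Cd68 lay wholly higher in OA_T0 than in both other groups and did not pass (limma adjusted p = 0.125 against OA and 0.258 against MDI). Endothelial markers summed to 18.6 to 25.7 over the libraries. Adgre1 was listed at 0 in every library, and Kdr did not exceed 2.01. Of the muscle markers, Myog was listed at 0 throughout and Des alone had a mean of at least 10. Des had 52.3 to 60.0 in OA_T0, 75.3 to 92.8 in OA and 50.4 to 65.3 in MDI libraries, wholly higher in OA, and did not pass. Of the bone and cartilage markers Sox9 alone had such a mean. Sox9, a cartilage transcription factor, averaged 2514 ± 125 in OA_T0, 2012 ± 102 in OA and 2528 ± 112 in MDI libraries. It rose in OA_T0 against OA (limma adjusted p = 0.00282) and fell in OA against MDI (0.00468), the directions in which Id4 also changed. The part of these markers in the results below was not tested.

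The 250 bases before the transcription start are shown for the genes that changed most, Id4 and Grem1, and for Id3, which holds a different motif. They come from RefSeq on GRCm38.p6, a later build than the mm9 named in the submitters' processing notes, and read 5′ to 3′ on the strand of the gene. Capitals mark GGCGCC, a GC-rich motif known from the BMP-responsive region of Id1, and CAGAC or its reverse complement GTCTG, a short SMAD motif. The Id4 window is chr13:48260866-48261115 on the plus strand, that of Grem1 chr2:113758649-113758898 on the minus strand, and that of Id3 chr4:136143572-136143821 on the plus strand.
Id4: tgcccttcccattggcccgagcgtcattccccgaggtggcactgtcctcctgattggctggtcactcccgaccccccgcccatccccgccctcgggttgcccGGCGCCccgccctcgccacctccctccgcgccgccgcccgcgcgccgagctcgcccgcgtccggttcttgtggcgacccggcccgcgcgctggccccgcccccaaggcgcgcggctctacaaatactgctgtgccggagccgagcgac
Grem1: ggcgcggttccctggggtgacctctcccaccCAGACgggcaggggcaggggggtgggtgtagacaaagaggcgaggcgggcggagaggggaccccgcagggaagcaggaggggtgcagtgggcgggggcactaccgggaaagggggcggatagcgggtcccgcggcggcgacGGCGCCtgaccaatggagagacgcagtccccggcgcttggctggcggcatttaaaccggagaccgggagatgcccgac
Id3: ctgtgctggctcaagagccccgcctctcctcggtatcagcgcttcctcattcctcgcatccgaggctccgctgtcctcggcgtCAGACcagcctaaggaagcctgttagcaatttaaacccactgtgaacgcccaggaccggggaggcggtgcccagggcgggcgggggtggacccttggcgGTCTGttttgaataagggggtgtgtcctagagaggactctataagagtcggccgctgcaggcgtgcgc

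Both strands were searched, and 9 of the 10 members had a window. Id1 had none and was not searched. GGCGCC occurred in 5 of them (Id2, Id4, Bmpr1a, Bmpr2 and Grem1) and in 9.59% of all 32851 windows of that length. The GC content of the member windows ran from 62.8% to 78.8%. The share over all windows is not matched for GC content, so enrichment was not tested. CAGAC occurred in 2 (Id3, at 2 places, and Grem1) and in 42.2% of all windows. CANNTG, the E box bound by helix-loop-helix factors, occurred in 2 (Id2 and Bmp4) and in 66.2% of all windows. Direct repeats of AGGTCA spaced by 1 or by 4 bases, sites of the kind that PPAR and LXR bind with RXR, occurred in 0 members and in 0.0335% and 0.0152% of all windows. No motif overlapped another in the windows shown. The GGCGCC-holding members include Id4, which fell in OA, and Bmpr1a and Bmpr2, which did not pass in any comparison.

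Per kb of exon, taken from GENCODE M21, Id1 was the most abundant member in every group and Id3 the second. Id1 averaged 4468 ± 204 in OA_T0, 3662 ± 375 in OA and 3750 ± 248 in MDI libraries (deposited value per kb, SD, n = 3). Id3 averaged 2566 ± 90.9 in OA_T0, 2108 ± 157 in OA and 2297 ± 187 in MDI libraries on the same scale. Bmpr1a and Id2 came next in every group, and neighbours among these 4 did not overlap. Id4 ranked 5 in OA_T0 libraries at 244 ± 18.4 per kb and 9 in OA libraries at 90.9 ± 9.16, against 6 in MDI libraries at 236 ± 34.7. Grem1 ranked 7 in OA_T0 libraries at 157 ± 6.84 per kb, 5 in OA libraries at 265 ± 10.8 and 5 in MDI libraries at 260 ± 13.2. Ranges of neighbours overlapped between Id4 and Smad6 and between Grem1 and Smad1 in OA_T0. In MDI they overlapped between Grem1 and Id4, Id4 and Smad6, and Bmpr2 and Smad1, while no neighbours overlapped in OA. Bmp4 was last in each group.

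**Figure D2:**
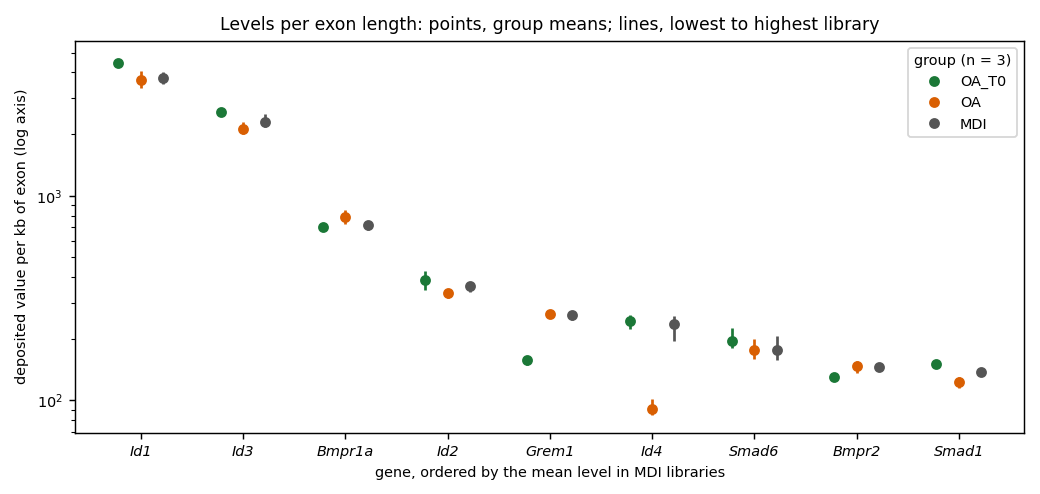
Deposited value per kb of exon (log axis) of the 9 tested members, ordered by their mean in MDI libraries; points are group means of OA_T0, OA and MDI and lines run from the lowest to the highest of 3 libraries. The OA mean of Id4 was 90.9 and the OA_T0 mean of Grem1 157, each apart from its 2 other groups.

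Among the Id proteins, Id4 showed the largest differences. It is the family member known for its part in neural and bone development. Id4 had 328, 390 and 331 normalised counts in OA replicates 1 to 3, against 754, 968 and 999 in MDI replicates. All OA libraries lay under all MDI libraries, with the highest OA value well short of the lowest MDI value. Id4 fell in OA by 1.37 on the log2 scale (SE 0.11, limma adjusted p = 1.56e-06). In OA_T0 libraries it had 947, 1003 and 863 normalised counts. These lay above every OA library and within or just beyond the MDI range. Id4 rose in OA_T0 against OA by 1.42 on the log2 scale (SE 0.11, limma adjusted p = 5.22e-07). Against MDI, OA_T0 gave 0.06 (95% interval -0.17 to 0.29, limma adjusted p = 0.819). Over 20 alternatives, the change in OA against MDI ran between -1.49 and -1.29 and the change in OA_T0 against OA at 1.37 or above, all past the threshold. In bulk RNA, fewer cells with Id4 and less Id4 RNA per cell cannot be told apart. Summed adipocyte markers, given above, were highest in the OA libraries, where Id4 was lowest, while Pparg was highest in OA_T0 and Sox9 was lowest in OA. Their part in this result was not tested.

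Id1 and Id3 are the members most directly tied to BMP input in many cell types. Id1 had 5429, 4957 and 5162 normalised counts in OA_T0, against 4141, 3876 and 4726 in OA libraries. Id3 had 4753, 4607 and 4428 in OA_T0, against 3659, 3570 and 4095 in OA libraries. For both genes every OA_T0 library lay above every OA library, and OA replicate 3 was the highest of its group. The log2 fold change of Id1, which rose, was 0.29 (SE 0.07, limma adjusted p = 0.0152), and Id3 rose by 0.29 (SE 0.07, limma adjusted p = 0.0116). The MDI libraries had 4087, 4306 and 4657 for Id1 and 3885, 3959 and 4498 for Id3. Id1 in OA_T0 also lay above every MDI library, with a log2 fold change of 0.25 that did not pass (limma adjusted p = 0.0853). It passed without MDI replicate 3 (0.0494) or OA replicate 3 (0.0380). In the other 18 of 20 alternatives it did not pass, with a limma adjusted p of up to 0.331. Neither gene passed in OA against MDI, where Id1 had -0.04 (95% interval -0.19 to 0.12) and Id3 -0.12 (95% interval -0.27 to 0.02).

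The calls of Id1 and Id3 in OA_T0 against OA did not hold without some single libraries. With any 1 library left out, the log2 fold change ran from 0.23 to 0.37 for Id1 and from 0.25 to 0.35 for Id3. For Id1 the limma adjusted p was 0.0671 and 0.0764 when replicate 1 or 2 of OA was left out, and 0.0895 when replicate 1 of OA_T0 was. For Id3 it was 0.0597 and 0.0561 when replicate 1 or 2 of OA was left out, and 0.0701 when replicate 1 of OA_T0 was. Both genes are short, with a longest transcript of 1160 bases for Id1 and 1278 for Id3, beside a median of 3006 over tested genes. With trends on transcript length and GC content removed from each library, an alternative added after the data were seen, the log2 fold changes were 0.21 for Id1 and 0.19 for Id3, and both passed (limma adjusted p = 0.00723 and 0.00704). In the same alternative Id3 also passed in OA against MDI, at -0.16 (limma adjusted p = 0.0315). In OA_T0 against MDI this alternative gave 0.14 for Id1 (limma adjusted p = 0.144) and 0.04 for Id3 (0.714). The main fit gave 0.25 and 0.16 there.

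Id2, a family member expressed in many differentiating cells, did not pass in any comparison. It had 1043, 844 and 940 normalised counts in OA_T0 libraries, 829, 841 and 773 in OA libraries and 826, 904 and 908 in MDI libraries. The OA_T0 and OA ranges were separated by a narrow margin, and both overlapped the MDI range. Its log2 fold change in OA_T0 against OA was 0.21 (95% interval 0.03 to 0.38, limma adjusted p = 0.104). It passed without OA_T0 replicate 2 (limma adjusted p = 0.0280).

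**Figure D3:**
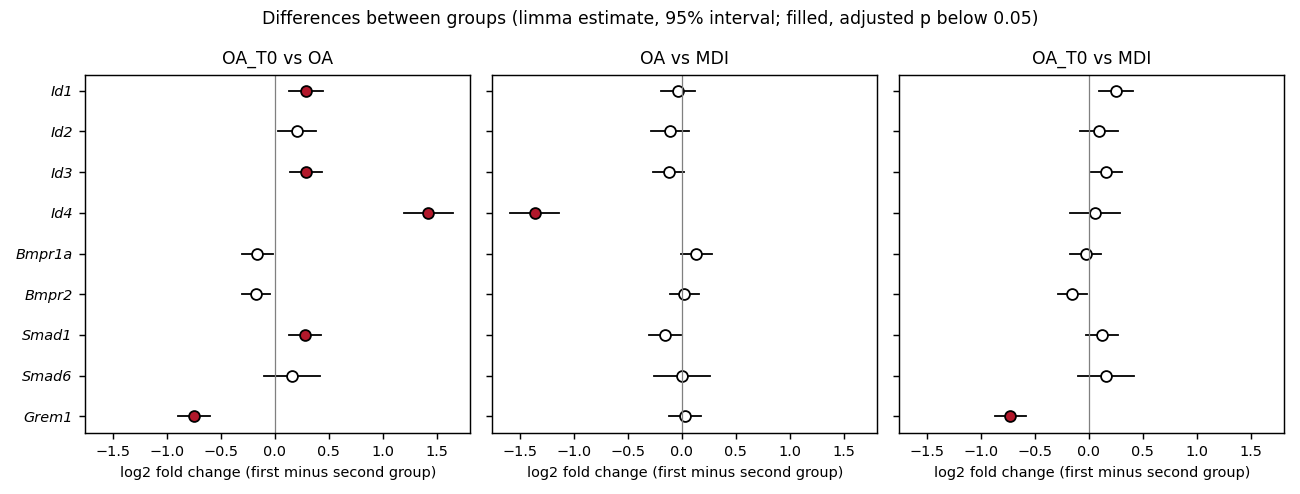
Log2 fold changes (horizontal axes, first minus second group) of the 9 tested members with limma's 95% interval in 3 comparisons, filled where the adjusted p was below 0.05. Id4 stands at 1.42 in OA_T0 vs OA and -1.37 in OA vs MDI, and Grem1 at -0.75 in OA_T0 vs OA and -0.73 in OA_T0 vs MDI.

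The ligand gene Bmp4 was at the edge of detection. It had 6.21, 3.02 and 1.54 normalised counts in OA_T0, 0, 0 and 1.00 in OA, and 0, 3.26 and 4.51 in MDI libraries. A floor of 3 fragments lay between 1.35 and 4.62 normalised counts, depending on the library. Bmp4 exceeded it in OA_T0 replicate 1, with 6 fragments, and in MDI replicate 3, with 4 fragments. No fold change is given, and a difference between groups was not tested.

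Grem1 encodes gremlin 1, a secreted protein that binds BMP2, BMP4 and BMP7. It had 658, 677 and 621 normalised counts in OA_T0 libraries, against 1074, 1151 and 1073 in OA libraries. All OA_T0 libraries lay under all OA libraries, and the spread inside either group was small beside the gap. Grem1 fell in OA_T0 against OA by 0.75 on the log2 scale (SE 0.07, limma adjusted p = 3.65e-06). The MDI libraries had 1137, 1028 and 1075 normalised counts, which overlapped the OA libraries. Grem1 fell in OA_T0 against MDI by 0.73 (SE 0.07, limma adjusted p = 1.83e-05). The difference of OA from MDI was 0.03 (95% interval -0.12 to 0.17, limma adjusted p = 0.880). Over 20 alternatives the log2 fold change of Grem1 ran between -0.79 and -0.72 in OA_T0 against OA and between -0.77 and -0.69 in OA_T0 against MDI, all past the threshold. The groups in which Id4 and Grem1 differed were therefore not the same: Id4 passed in both comparisons with OA, and Grem1 in both comparisons with OA_T0.

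The receptor genes among the members did not pass in any comparison. Bmpr1a, a type I receptor, had 4436, 4699 and 4308 normalised counts in OA_T0, 5056, 5417 and 4608 in OA, and 4307, 4764 and 4666 in MDI libraries. OA replicate 3 lay within the range of both other groups. Its log2 fold change was -0.16 in OA_T0 against OA (95% interval -0.31 to -0.02, limma adjusted p = 0.112), and it passed without OA replicate 3 (0.0305). Bmpr2, a type II receptor, had 2409, 2374 and 2259 in OA_T0, 2717, 2812 and 2439 in OA, and 2661, 2602 and 2561 in MDI libraries. All OA_T0 libraries lay under all libraries of both other groups. Its log2 fold change was -0.18 in OA_T0 against OA (95% interval -0.31 to -0.04, limma adjusted p = 0.0670) and -0.15 against MDI (limma adjusted p = 0.205), and in the first it passed without OA replicate 3 (0.0136). The longest Bmpr2 transcript has 12899 bases, the longest of the members. With trends on length and GC content removed, Bmpr2 had 0.01 in OA_T0 against OA and 0.03 against MDI, and Bmpr1a had -0.06 in OA_T0 against OA and 0.06 against MDI, and none passed.

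Smad1 encodes a SMAD that BMP receptors activate. It had 977, 927 and 911 normalised counts in OA_T0, 718, 794 and 812 in OA, and 894, 837 and 857 in MDI libraries. The 3 groups did not overlap, with OA_T0 highest and OA lowest. Smad1 rose in OA_T0 against OA by 0.28 on the log2 scale (SE 0.07, limma adjusted p = 0.0163). This call did not hold without OA replicate 1 (limma adjusted p = 0.100) or OA_T0 replicate 1 (0.0904). With any 1 library left out, the log2 fold change of Smad1 ran from 0.22 to 0.31. OA replicate 1 and OA_T0 replicate 3 had the smallest shares of the ribosomal RNA gene given above. Without both, the limma adjusted p was 0.132 for Smad1, 0.0977 for Id1 and 0.0609 for Id3. Smad1 had -0.16 in OA against MDI (95% interval -0.31 to -0.01, limma adjusted p = 0.218) and 0.12 in OA_T0 against MDI (limma adjusted p = 0.378). Its close relative Smad5 averaged 2545 ± 170 in OA_T0, 2826 ± 91.6 in OA and 2857 ± 50.5 in MDI libraries (SD, n = 3). All OA_T0 libraries of Smad5 lay under all libraries of both other groups. Its log2 fold change was -0.15 against OA (limma adjusted p = 0.0981) and -0.17 against MDI (0.155), and neither passed. The relative Smad9 had -0.24 in OA_T0 against OA (limma adjusted p = 0.301). Smad6 encodes an inhibitory SMAD that is itself a BMP target. It had 727, 579 and 578 in OA_T0, 536, 511 and 639 in OA, and 506, 521 and 664 in MDI libraries. Its groups overlapped in every comparison, and its log2 fold change in OA_T0 against OA was 0.16 (95% interval -0.10 to 0.42, limma adjusted p = 0.412).

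The number of members higher in OA_T0 than in OA was 1 when OA replicate 1 was left out, 2 when OA replicate 2 was and 1 when OA_T0 replicate 1 was, against 4 with all libraries. It was also 1 without OA replicate 1 and OA_T0 replicate 3 together. These omissions shrank the count over all tested genes too, so smaller counts were not particular to the members. From 1240 genes higher, that count went to 684, 757 and 580 in the order above, and to 524 for the pair. The number of members lower was 3 without OA replicate 3, where Bmpr1a and Bmpr2 joined Grem1. Within the OA group, replicate 3 had the highest Id1, Id3, Smad1 and Smad6 values of its group and the lowest Id2, Bmpr1a, Bmpr2 and Grem1 values. MDI replicate 3 had the highest Id1, Id2, Id3, Id4 and Smad6 values and the lowest Bmpr2 value of its group, with Smad1, Bmpr1a and Grem1 in between.

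Beyond the members, further genes of the pathway were listed by role, also with earlier results of these data known. Of these 64 genes, 56 were in the table and 38 were tested. In OA against MDI 3 were higher and 1 lower, beside 3.43% and 3.36% of all tested genes. In OA_T0 against OA 3 were higher and 6 lower, beside 8.27% and 6.84%, and in OA_T0 against MDI 0 were higher and 1 lower, beside 1.25% and 1.36%. Their median log2 fold changes were -2.04e-04, -0.03 and 0.05 in the same order, where all tested genes had 0.01, -0.0023 and 0.02. Most ligand genes were at the edge of detection: of 15 listed ligands, 14 were in the table and 2 were tested, Gdf10 and Gdf11. Bmp2 and Bmp7 were listed at 0 in every library.

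Of 9 tested BMP antagonists, Grem1 included, 1 rose and 3 fell in OA_T0 against OA, where 8.27% of all tested genes were higher and 6.84% lower. In OA against MDI 1 rose and 0 fell, beside 3.43% and 3.36%. Bmper encodes a secreted protein that binds BMPs and modulates their action. It averaged 1775 ± 91.7 normalised counts in OA_T0, 2701 ± 223 in OA and 2060 ± 374 in MDI libraries (SD, n = 3). It fell in OA_T0 against OA by 0.60 (SE 0.10, limma adjusted p = 9.34e-04). In OA against MDI it rose by 0.40 (limma adjusted p = 0.0250), a call that failed without either of MDI replicate 2 (0.152) and MDI replicate 3 (0.0688), and without either of OA replicate 1 (0.0896) and OA replicate 2 (0.0872). It also failed with equal library totals (0.0665), with no filter (0.126) and with OA replicate 1 and OA_T0 replicate 3 both left out (0.0535). Chrdl1, a chordin-like antagonist, averaged 577 ± 76.0 in OA_T0, 811 ± 62.8 in OA and 665 ± 69.0 in MDI libraries. It fell in OA_T0 against OA by 0.49 (SE 0.10, limma adjusted p = 0.00439). Chrd, which encodes chordin itself, went the other way, at 59.3 ± 7.76 in OA_T0, 25.1 ± 3.60 in OA and 39.2 ± 2.71 in MDI libraries. Chrd rose in OA_T0 against OA by 1.21 (SE 0.23, limma adjusted p = 0.00220). The antagonist Fst, follistatin, was the most highly counted antagonist and did not pass in any comparison (limma adjusted p = 0.0535 in OA_T0 against OA), with 5799 to 7193 normalised counts in OA_T0, 5352 to 5744 in OA and 5949 to 6455 in MDI libraries.

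Among 9 tested receptors and co-receptors, 1 rose and 0 fell in OA against MDI, beside 3.43% and 3.36% of all tested genes. In OA_T0 against OA 0 passed, beside 8.27% of all tested genes higher and 6.84% lower. The receptor gene that rose was Acvr2b, an activin and BMP type II receptor, at 63.3 ± 11.5 in OA and 35.8 ± 2.89 in MDI libraries (log2 fold change 0.79, SE 0.22, limma adjusted p = 0.0411). Its call failed without any 1 of the MDI libraries (0.108, 0.161 and 0.0527 for replicates 1 to 3), and without OA replicate 1 (0.173), OA replicate 3 (0.110) or, in the third group, OA_T0 replicate 1 (0.0595). It also failed with no filter (0.110) and with OA replicate 1 and OA_T0 replicate 3 both left out (0.143). Among 8 tested SMADs and SMAD ubiquitin ligases, Smad1 and Smad7 rose and Smurf2 fell in OA_T0 against OA. Of all tested genes, 8.27% were higher and 6.84% lower there. Smad7, an inhibitory SMAD of both the BMP and TGF-beta branches, averaged 496 ± 8.95 in OA_T0 and 399 ± 20.2 in OA libraries (log2 fold change 0.31, limma adjusted p = 0.0204). Its call did not hold without OA replicate 1 (0.0786) or OA_T0 replicate 1 (0.0822), with OA replicate 1 and OA_T0 replicate 3 both left out (0.116), or with length and GC trends removed (0.0535). Smurf2, a ligase that marks SMADs and their receptors for degradation, averaged 4080 ± 210 in OA_T0 and 4749 ± 181 in OA libraries (log2 fold change -0.22, limma adjusted p = 0.0390). Its call failed without MDI replicate 2 (0.0526), without replicate 1 or 2 of OA (0.134 and 0.122), and without replicate 1 or 3 of OA_T0 (0.125 for each). With no filter the value was 0.105, and with OA replicate 1 and OA_T0 replicate 3 both left out 0.287.

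**Figure D4:**
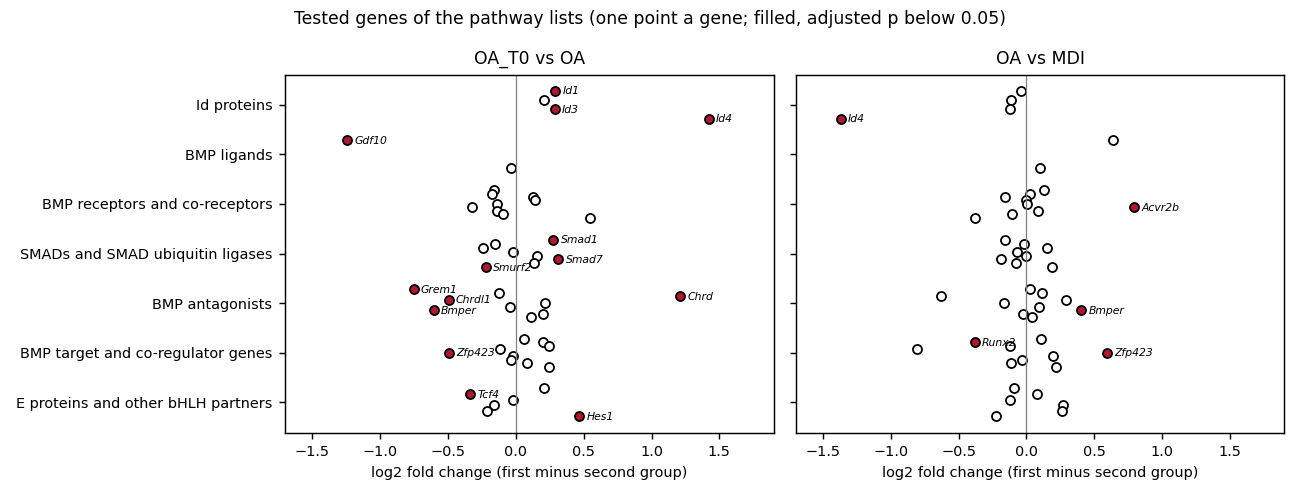
Log2 fold changes (horizontal axes, first minus second group) of every tested gene of the pathway lists, members included, by role; filled and named points had an adjusted p below 0.05. In OA_T0 vs OA the antagonists Grem1 (-0.75), Bmper (-0.60) and Chrdl1 (-0.49) lie left of 0 and Chrd (1.21) right of it.

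Of the ligands, Gdf10 averaged 13.5 ± 2.26 in OA_T0 and 34.8 ± 13.5 in OA libraries and fell by 1.24 (SE 0.35, limma adjusted p = 0.0254). This call failed without replicate 2 or 3 of OA (0.0801 and 0.0925), without replicate 1 or 2 of OA_T0 (0.0545 and 0.0589), and with no filter (0.0803). Gdf11 had 640 to 742 in OA_T0, 632 to 739 in OA and 607 to 700 in MDI libraries, which overlapped. Of 9 tested targets and co-regulators, 1 rose and 1 fell in OA against MDI, beside 3.43% and 3.36% of all tested genes. Runx2, the bone transcription factor, averaged 914 ± 21.4 in OA and 1192 ± 78.0 in MDI libraries and fell by 0.38 (SE 0.07, limma adjusted p = 0.00495). Zfp423, a zinc-finger factor that binds SMADs and marks preadipocytes, averaged 231 ± 13.7 in OA and 154 ± 21.2 in MDI libraries and rose by 0.59 (limma adjusted p = 0.0364). In OA_T0 it averaged 167 ± 35.9, lower than in OA by 0.49 (limma adjusted p = 0.0497). The first call of Zfp423 failed without replicate 1 or 2 of MDI (0.0757 and 0.185) and without any 1 of the OA libraries (0.0837, 0.0746 and 0.112 for replicates 1 to 3), and with no filter (0.124). The second failed without replicate 1 or 2 of MDI (0.0613 and 0.0519), any 1 of the OA libraries (0.105, 0.0984 and 0.111 for replicates 1 to 3), and replicate 2 or 3 of OA_T0 (0.0576 and 0.184). It also failed under quantile normalisation (0.0591), in a fit of OA_T0 and OA alone (0.0576), with no filter (0.132) and with OA replicate 1 and OA_T0 replicate 3 both left out (0.268), and held in 8 of 20 alternatives.

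For each member that passed in some comparison, the 3 genes with the most similar profile, predicted-gene symbols left out, were taken by Pearson's r of the log2 values over the 9 libraries. These values describe profiles that share groups and libraries. Closest to Id4 were Dusp8 (0.983), Cpeb2 (0.979) and Dusp4 (0.977). Dusp8 and Dusp4 encode phosphatases of MAP kinases. Dusp8 averaged 105 normalised counts in OA_T0, 41.5 in OA and 93.9 in MDI libraries, and Dusp4 162, 81.9 and 152 in the same order. Closest to Grem1 were Phtf1os (0.972), Igsf10 (0.968) and Ganab (0.966). Phtf1os is named as an opposite-strand transcript of Phtf1, and whether counting kept the strands apart is not given in the sources used here. Igsf10 averaged 136 in OA_T0, 268 in OA and 230 in MDI libraries. Closest to Id1 were Tead4 (0.990), a DNA-binding partner of YAP and TAZ, Rab5if (0.983) and Ndufa12 (0.982). Closest to Id3 were Suv39h1 (0.984), Naglu (0.984) and Fam129b (0.983), and closest to Smad1 were Col4a1 (0.973), Srgap3 (0.966) and Rpusd2 (0.965).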

How the data were processed

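The deposited signal was 1 table of normalised counts per gene. Its values are not whole numbers, and the normalisation the authors applied is not given in the sources used here. The submitters' processing notes name the build mm9 and the tools DESeq2, HTSeq, TopHat and CASAVA 1.8.2, without their roles. The libraries were strand-specific per the labels' protocols; whether counting used the strand is not given in the sources used here. Low values rise in steps, taken as 1 fragment each. Between 5 and 50 steps, 62.3% to 68.8% of values were whole within 0.05, so reads were not recovered and count tests were not run. Depth is the total divided by the step, and the floor of 3 fragments covers counting error only.

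Values were taken as log2(value + 1), and genes whose mean over 9 libraries reached 10 entered 1 limma fit of all 3 groups with a mean-variance trend (R 4.3.3, limma 3.58.1). Two-sided p-values were adjusted by Benjamini-Hochberg within each comparison, and intervals are unadjusted. The procedure was tested on simulated data. Named genes were the members, up to 3 passing genes per pathway list and comparison, and the 3 most similar genes per passing member, without predicted-gene symbols. The members and lists were chosen with earlier results of these data known. Lengths and GC content came from GENCODE M21, which held 97.9% of tested genes. Alternatives were other pseudocounts (0.5 and 5), filters (none and 50), scalings and designs, a replicate block, robust variances, each library left out, 2 libraries left out together and, added later, removal of trends on length and GC content.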

Additional observations from a re-analysis of the deposited data

How the results depend on the processing

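Of the 27 pairs of a tested member and a comparison, 12 kept direction and side of the threshold under all 20 alternatives, among them Id4 in both comparisons with OA and Grem1 in both with OA_T0. No difference that passed changed sign. Differences near 0 did. With length and GC trends removed, Bmpr2 had 0.0081 in OA_T0 vs OA and 0.0279 against MDI, Bmpr1a 0.0597 against MDI, and Smad6 -0.0098 in OA vs MDI. Smad6 had -0.0031 there under quantile normalisation and -0.0164 with equal totals. Smurf2 had 0.0060 in OA_T0 vs MDI without OA replicate 1 and OA_T0 replicate 3. With 1 library left out, OA vs MDI ran from -0.117 to 0.0263 for Id1, -0.0189 to 0.0839 for Bmpr2, -0.0092 to 0.0636 for Grem1 and -0.0957 to 0.124 for Smad6. OA_T0 vs MDI ran from -0.0719 to 0.131 for Id4, -0.104 to 0.0087 for Smurf2 and -0.0351 to 0.281 for Zfp423. The cause of these shifts was not tested.

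In OA vs MDI, 514 genes were higher and 504 lower over all tested genes, for OA_T0 vs OA the counts were 1240 and 1026, for OA_T0 vs MDI 188 and 204. With no filter OA vs MDI had 233 and 234, OA_T0 vs MDI had 72 and 38, and the comparison of OA_T0 with OA had 620 lower, where more genes entered the adjustment. Id1 then had adjusted p = 0.0625 in OA_T0 vs OA. With length and GC trends removed OA vs MDI had 836 higher and 853 lower and 2 members lower. Robust variances gave 132 lower in OA_T0 vs MDI. Without OA replicate 1 and OA_T0 replicate 3, OA_T0 vs OA had 524 higher, 402 lower and 1 member higher. With 1 library left out, OA vs MDI had 211 to 658 higher and 155 to 639 lower, while OA_T0 vs OA had 580 to 1443 and 474 to 1239, and the comparison with MDI 66 to 284 and 44 to 247. The members higher ran from 0 to 0, 1 to 5 and 0 to 1 in the same order, and those lower from 1 to 1, 1 to 3 and 1 to 1.

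Same-numbered libraries did not deviate together in every pair (correlations from -0.29 to 0.21), so the number is not taken as a pairing. With a replicate block, OA vs MDI had 433 higher and 417 lower, while OA_T0 vs OA had 1095 and 916 and the comparison with MDI 156 and 183. Members higher were then 0, 4 and 0 and members lower 1, 1 and 1, and no member's call changed. The block ended 4 calls of other named genes, with adjusted p = 0.0662 for Acvr2b and 0.0539 for Zfp423 in OA vs MDI, 0.0664 for Zfp423 in OA_T0 vs OA and 0.0537 for Tcf4 in OA_T0 vs MDI.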

Other observations

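Id proteins act by binding other helix-loop-helix factors, and 6 genes of a list of E proteins and related factors were tested. In OA_T0 against OA 1 rose and 1 fell, beside 8.27% and 6.84% of all tested genes. In OA against MDI 0 passed in limma, beside 3.43% of all tested genes higher and 3.36% lower. In OA_T0 against MDI 0 rose and 1 fell, beside 1.25% and 1.36%. At an unadjusted p below 0.05 in limma, 4 of these 6 genes stood in OA against MDI. There were 4 in OA_T0 against OA and 3 in OA_T0 against MDI. The share of all tested genes at this unadjusted cut was not computed, so these counts do not show whether the list differs from other genes. Tcf4, an E protein gene, averaged 4087 ± 239 in OA_T0, 5168 ± 324 in OA and 4889 ± 59.6 in MDI libraries (normalised counts, SD, n = 3). It fell in OA_T0 against OA by 0.34 on the log2 scale (SE 0.06, limma adjusted p = 0.00174), and by 0.19 with trends on transcript length and GC content removed (limma adjusted p = 0.0130). Its fall against MDI (limma adjusted p = 0.0348) failed without any 1 of the MDI libraries (0.114, 0.114 and 0.0664 for replicates 1 to 3) and without replicate 1 or 3 of OA_T0 (0.206 and 0.0730). It was -0.12 with length and GC trends removed (0.198), and the call also failed with no filter (0.126) and with OA replicate 1 and OA_T0 replicate 3 both left out (0.0912). Hes1, a Notch target that represses transcription, averaged 632 ± 49.9 in OA_T0, 456 ± 27.2 in OA and 533 ± 26.2 in MDI libraries. It rose in OA_T0 against OA by 0.47 (SE 0.09, limma adjusted p = 0.00186), a call that failed without OA replicate 1 and OA_T0 replicate 3 together (0.0519). The E protein genes Tcf3 and Tcf12 did not pass in any comparison. Tcf3 had 3028 to 3231 in OA_T0, 2453 to 3035 in OA and 2752 to 3175 in MDI libraries, and Tcf12 had 5565 to 6000 in OA_T0, 5586 to 6182 in OA and 6173 to 6559 in MDI libraries.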
